A study of Mus musculus with 6 samples.

Results

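The WNT pathway was followed here through 10 genes, namely the Frizzled receptor genes Fzd1, Fzd2 and Fzd7, the extracellular inhibitor genes Sfrp1 and Notum, the feedback genes Axin2 and Nkd1, and the transcription factor genes Lef1, Tcf7 and Tcf7l2. Each gene was represented by every probe that the annotation used gives its symbol. That annotation covers only the 18312 probes of the authors' deposited values, out of 45281 on the array. Each of those 18312 had a detection p under 0.01 on at least 1 array. The search found 10 probes for 7 of the 10 genes. Fzd1, Lef1 and Tcf7 had no probe of that symbol there and were not analysed here. Probes outside the annotation may measure them. All 10 probes were detected on enough arrays to be tested, which that preselection favours.

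WNT proteins are secreted lipid-modified signals that bind a Frizzled receptor together with the co-receptor LRP5 or LRP6. In the β-catenin branch of the pathway, receptor binding stops the destruction of β-catenin, which then enters the nucleus and activates genes with factors of the TCF/LEF family. Several of those target genes, Axin2, Nkd1 and Notum among them, encode proteins that dampen the signal, and for this reason they are often read as feedback targets. In the limb bud, WNT signals from the ectoderm maintain the apical ridge and set dorsal identity, and WNT5A in the mesenchyme drives outgrowth.

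The RNA came from mouse cell lines made from the limb mesenchyme of E10.5 embryos, 3 samples of the line from the posterior limb and 3 of the line from the anterior limb. Both lines carry a temperature-sensitive SV40 T antigen, a viral oncoprotein used to immortalize cells, so neither group is free of it. Total RNA was amplified, labelled with biotin and read on Illumina bead arrays, 1 array per sample. The labels do not state that samples of the same line were cultured separately, and the p-values below therefore reflect a spread between samples that could be purely technical. As labelled, each limb side is represented by a single line, and the side cannot be told apart from the line. Neither slide nor scan date was given in the labels or the files used here, so a batch could not be examined.

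Levels below are background-corrected, quantile-normalized log2 intensities, and differences are posterior minus anterior on that scale, with the standard error (SE) of the limma fit across all tested probes. A probe was called past the threshold at a Benjamini-Hochberg adjusted p under 0.05. The posterior arrays detected 17784 to 18657 probes and the anterior arrays 16052 to 17705. The lines differed at a large share of the array, with 42.6% of 18242 tested probes past the threshold, 21.2% higher and 21.4% lower, and with groups that did not overlap at 54% of the probes. Correlations over these probes, which are not independent, were 0.971 to 0.989 within a line and 0.882 to 0.905 between the lines.

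Set against its markers, the labelled cell type is in doubt for both lines, and posterior and anterior below mean the libraries so labelled. Of 12 genes listed as limb mesenchyme markers 6 had a named probe, and their summed normalized level was 423 to 706 on the posterior arrays and 179 to 208 on the anterior arrays, where Pdgfra and Twist2 were detected on no array. All 10 genes of a pluripotent cell list had a named probe, with a summed level of 11122 to 16457 on the posterior arrays and 39863 to 40895 on the anterior arrays. Dppa5a made up most of the posterior sum, with a mean log2 level of 13.60 in posterior and 14.36 in anterior. Esrrb, the next brightest of the list in posterior, averaged 8.33 there and 12.76 in anterior. Tdgf1 was the only gene of that list detected on no posterior array, and 9 of the 10 were lower in posterior. Endoderm genes, 5 of 8 with a named probe, summed to 646 to 1358 on the posterior arrays and 125 to 160 on the anterior arrays, with Foxa2, Gata6 and Sox17 detected on no anterior array. Epithelial genes, 6 of 10 with a named probe, summed to 4693 to 8281 on the posterior arrays and 3171 to 3893 on the anterior arrays, where Krt19 was detected on no array. Within that list the keratin genes Krt8, Krt18 and Krt19 were higher in posterior and Esrp1 was lower. Cdh1 and Cldn4 did not differ past an adjusted p of 0.05. Endothelial genes, 4 of 7 with a named probe, summed to 185 to 264 on the posterior arrays, none of which detected Vwf, and 500 to 556 on the anterior arrays, none of which detected Flt1. Pecam1 was the brightest of them in anterior, with a mean of 8.43 there and 5.41 in posterior. Pecam1 and Vwf were lower in posterior, Flt1 was higher, and Tek did not differ past an adjusted p of 0.05. Neural genes, 2 of 7 with a named probe, summed to 275 to 405 on the posterior arrays and 110 to 143 on the anterior arrays. All 6 sums thus separated the lines, and their part in the results below was not tested. The sums cover unlike numbers of genes, which limits a comparison between lists. A gene without a named probe was not measured here and is not shown to be absent. In bulk RNA of this kind, fewer cells of a type and less RNA per cell cannot be told apart.

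Of the 10 WNT probes 8 passed the threshold, 3 higher and 5 lower in posterior, beside the 42.6% of all tested probes, 21.2% and 21.4%, given above. The groups did not overlap in those 8 probes, beside the 54% over all tested probes. The 3 higher probes belonged to Fzd2, Axin2 and Nkd1, and the 5 lower ones to Notum and Sfrp1. Fzd7 and Tcf7l2 did not pass. By gene, 5 of 7 passed, where 47.4% of 9908 tested genes did, 25.9% higher and 21.5% lower. Feedback genes were found on both sides. The 10 genes were chosen with earlier results of these data known, which limits what these counts show beside the shares of all probes and genes. Nkd1 and Notum probe ILMN_2504886 also entered the test only through a single line.

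**Figure D1:**
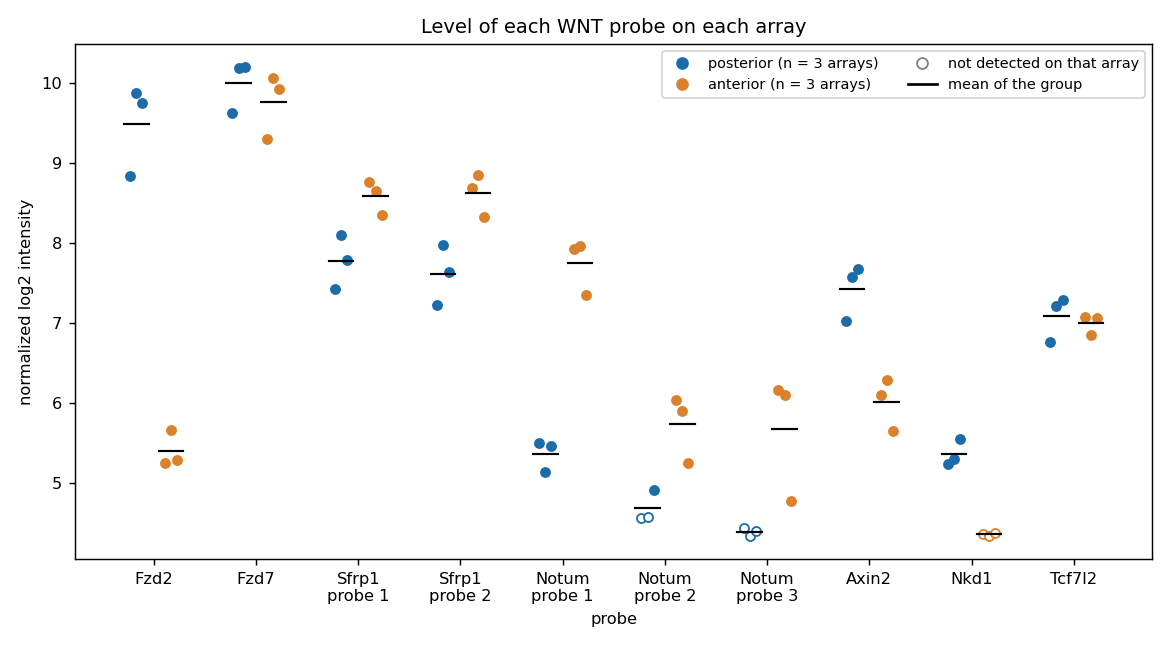
The y axis gives the normalized log2 intensity on each array for the 10 WNT probes along the x axis, with the 3 posterior arrays left of the 3 anterior arrays, a bar at the mean of each line, and open points where the probe was not detected. Fzd2 lay between 8.84 and 9.88 on the posterior arrays and between 5.25 and 5.66 on the anterior arrays, whereas the lines overlapped for Fzd7 and Tcf7l2.

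Among the receptors, Fzd2 showed the widest gap of the 10 probes. Fzd2, a Frizzled receptor gene that is mutated in a human skeletal dysplasia with short limbs, had levels of 8.84, 9.88 and 9.76 on the posterior arrays and 5.25, 5.66 and 5.28 on the anterior arrays. The deposited intensities behind these levels were 626, 970.5 and 843 in posterior and 80.5, 94.7 and 80.4 in anterior, where undetected probes had a median of 59.5 to 64.7 over the 6 arrays. Every anterior array detected Fzd2, though close to background, and every posterior array was far above every anterior array. The mean was 9.49 ± 0.57 in posterior and 5.40 ± 0.23 in anterior (SD, n = 3 each), 17.0-fold higher (log2 difference 4.09, SE 0.27, 95% interval 3.47 to 4.71, limma adjusted p = 1.21e-05). On the authors' log2 values, which were not background-corrected, the difference was 3.12 (SE 0.24, limma adjusted p = 5.55e-05), or 8.68-fold.

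Fzd7, a Frizzled receptor found in many stem and mesenchymal cells, was bright in both lines. Its levels were 9.63, 10.19 and 10.20 on the posterior arrays and 9.31, 10.07 and 9.93 on the anterior arrays. The ranges overlapped, and the first posterior array lay below the second and the third anterior array. The log2 difference was 0.24 (SE 0.24) with a 95% interval of -0.31 to 0.78 and a limma adjusted p of 0.457. The interval contains 0 and stops well short of the Fzd2 difference.

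The change of Fzd2 relative to Fzd7 was also read within each array, where a shift shared by all log2 levels of that array cancels. The effect of background correction does not cancel. On the authors' values, which lack it, the posterior minus anterior difference was 3.12 for Fzd2 and 0.23 for Fzd7. Fzd2 minus Fzd7 was -0.79, -0.31 and -0.44 on the posterior arrays and -4.06, -4.40 and -4.64 on the anterior arrays, a shift of 3.85. The lines did not overlap in this quantity. The Fzd2 gap between the lines was wider than the whole Fzd7 range and made that certain. With 3 arrays against 3, the exact two-sided permutation p was 0.1, the smallest the design allows, and 0.1 after adjustment over the 3 gene pairs compared in this way, so it cannot pass 0.05.

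**Figure D2:**
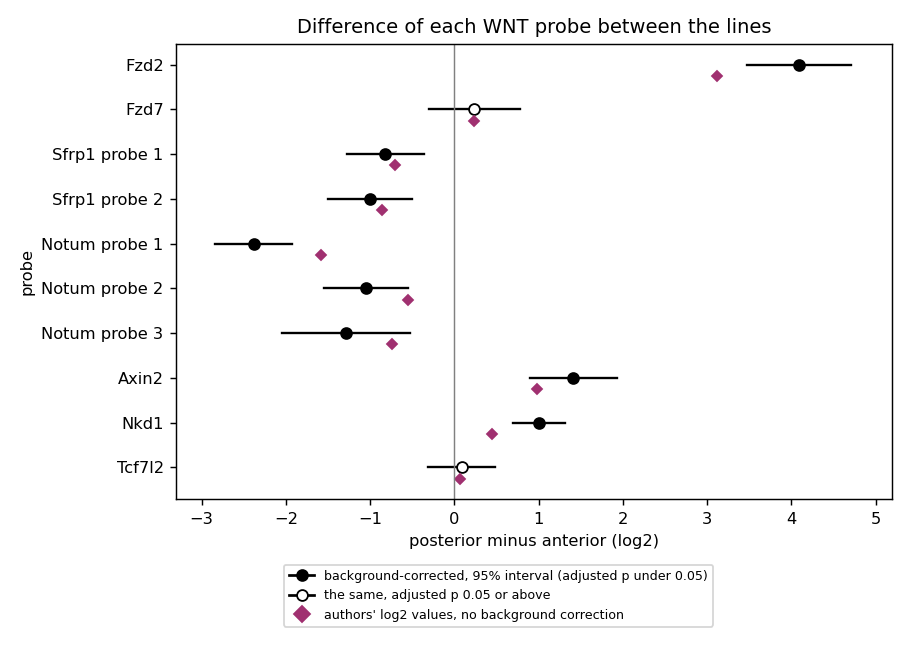
The x axis gives the posterior minus anterior difference in log2 intensity for each WNT probe down the y axis, as points with 95% intervals from the background-corrected values, filled where the adjusted p was under 0.05, and as diamonds from the authors' log2 values. The intervals of Fzd7 and Tcf7l2 cross 0, and every diamond lies closer to 0 than its point.

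Both extracellular inhibitors were lower in posterior. SFRP1 is a secreted protein with a Frizzled-like domain that binds WNT proteins, and 2 probes measured its gene. Sfrp1 probe ILMN_2604282 had levels of 7.43, 8.10 and 7.80 on the posterior arrays and 8.77, 8.66 and 8.35 on the anterior arrays. The lowest anterior array was 8.35 and the highest posterior array 8.10, so the lines were separate by a narrow margin. Its mean was 7.77 ± 0.34 in posterior and 8.59 ± 0.22 in anterior (SD, n = 3 each), 1.77-fold lower (log2 difference -0.82, SE 0.20, limma adjusted p = 0.0104). With arrays scaled to a common median instead of quantile-normalized, this probe no longer passed (log2 difference -0.59, limma adjusted p = 0.0725). Sfrp1 probe ILMN_1231689 had 7.23, 7.98 and 7.64 on the posterior arrays and 8.69, 8.85 and 8.33 on the anterior arrays, 2.01-fold lower (log2 difference -1.01, SE 0.22, limma adjusted p = 0.00629). The second probe gave the same direction and passed under median scaling too (limma adjusted p = 0.0404).

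Notum encodes a secreted carboxylesterase that removes the lipid from WNT proteins and so inactivates them, and its gene is itself a WNT target. The brightest of its 3 probes, ILMN_2932164, had 5.50, 5.14 and 5.46 on the posterior arrays and 7.93, 7.97 and 7.35 on the anterior arrays. The deposited intensities were 104, 78.9 and 87.5 in posterior and 229.7, 318 and 186 in anterior. All 6 arrays detected it, and the posterior arrays lay near background. The mean was 5.37 ± 0.20 in posterior and 7.75 ± 0.35 in anterior (SD, n = 3 each), 5.21-fold lower (log2 difference -2.38, SE 0.20, 95% interval -2.84 to -1.93, limma adjusted p = 3.80e-05). It was 2.99-fold lower on the authors' values and 2.98-fold lower with the mean of the 3 Notum probes.

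The other Notum probes were dimmer and had the same direction. Notum probe ILMN_2692527 had 4.56, 4.58 and 4.91 on the posterior arrays, of which only the third detected it, and 6.04, 5.91 and 5.25 on the anterior arrays, which all detected it (2.07-fold lower, log2 difference -1.05, SE 0.22, limma adjusted p = 0.00514). Notum probe ILMN_2504886 had 4.44, 4.34 and 4.40 on the posterior arrays, none of which detected it, and 6.17, 6.10 and 4.78 on the anterior arrays, so posterior has only a bound and the level was at least 1.93-fold lower (log2 difference -1.29, SE 0.33, limma adjusted p = 0.0136). A bound of this kind sets the mean of the brighter line against the lowest signal detected on each array of the other. That signal lay between 4.70 and 4.91. For a probe that enters the test only through its brighter line, the filter favours a difference without forcing it past the threshold. Anterior replicate 3 was the lowest anterior array on all 3 Notum probes. The call of ILMN_2504886 was lost without anterior replicate 1 (limma adjusted p = 0.0557).

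The feedback genes Axin2 and Nkd1 were higher in posterior, opposite to Notum. Axin2 encodes a scaffold of the complex that destroys β-catenin, and its gene is among the most widely used readouts of β-catenin signalling. It had levels of 7.03, 7.58 and 7.68 on the posterior arrays and 6.10, 6.30 and 5.66 on the anterior arrays. The deposited intensities were 220.3, 239.5 and 243 in posterior and 101, 125 and 90.1 in anterior. Each posterior array was above each anterior array, and all 6 detected the probe. The mean was 7.43 ± 0.35 in posterior and 6.02 ± 0.33 in anterior (SD, n = 3 each), 2.66-fold higher (log2 difference 1.41, SE 0.22, 95% interval 0.90 to 1.92, limma adjusted p = 0.00129).

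Nkd1 encodes a protein that binds Dishevelled and restrains WNT signalling. Its levels were 5.23, 5.31 and 5.56 on the posterior arrays, all of which detected it, and 4.36, 4.34 and 4.38 on the anterior arrays, none of which did. The posterior intensities of 92.5, 83.3 and 90.6 were themselves close to background. The level was at least 1.45-fold higher in posterior (log2 difference 1.005, SE 0.14, limma adjusted p = 0.000592). The probe passed the detection filter only through the posterior arrays, so the direction was fixed by that filter.

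The sequences just upstream of these genes are shown because their transcripts moved and because the TCF/LEF factors bind a known short motif. RefSeq windows of the 250 bases before the gene start (GRCm38.p6) were searched for CTTTGAT and CTTTGAA on either strand, that is also for ATCAAAG and TTCAAAG, 4 strings of 7 letters of which none is a part of another. Capitals mark a match. Axin2 (chr11:108920099-108920348, plus strand) and Nkd1 (chr8:88527383-88527632, plus strand) are given with Sp5 (chr2:70474673-70474922, plus strand), a further feedback target, and Wnt5b (chr6:119449387-119449636, minus strand), the genes with a match among those higher in posterior.
Axin2: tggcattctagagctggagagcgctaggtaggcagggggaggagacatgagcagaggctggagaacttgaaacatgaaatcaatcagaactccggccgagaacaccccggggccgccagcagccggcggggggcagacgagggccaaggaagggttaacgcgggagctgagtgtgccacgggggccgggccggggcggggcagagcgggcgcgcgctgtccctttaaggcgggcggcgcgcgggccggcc
Nkd1: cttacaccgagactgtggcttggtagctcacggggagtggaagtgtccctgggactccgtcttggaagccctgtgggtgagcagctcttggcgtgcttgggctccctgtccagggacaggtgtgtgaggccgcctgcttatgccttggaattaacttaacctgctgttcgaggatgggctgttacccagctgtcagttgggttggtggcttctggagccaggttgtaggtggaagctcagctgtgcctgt
Sp5: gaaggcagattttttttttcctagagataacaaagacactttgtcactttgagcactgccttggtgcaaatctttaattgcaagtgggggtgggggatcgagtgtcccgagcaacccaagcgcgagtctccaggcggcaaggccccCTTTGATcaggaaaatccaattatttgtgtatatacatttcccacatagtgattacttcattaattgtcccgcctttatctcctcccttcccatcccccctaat
Wnt5b: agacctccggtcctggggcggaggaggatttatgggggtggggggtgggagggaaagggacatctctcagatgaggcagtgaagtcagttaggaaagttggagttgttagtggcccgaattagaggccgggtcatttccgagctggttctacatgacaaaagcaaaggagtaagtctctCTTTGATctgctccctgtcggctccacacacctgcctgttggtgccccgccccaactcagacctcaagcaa
The windows of Axin2 and Nkd1 held no match, nor did those of Fzd7 and Tcf7l2. Fzd2, Notum and Sfrp1 were not matched in the sequence table. Sp5 had CTTTGAT starting 104 bases before the gene start and Wnt5b had it 71 bases before. Of 42 tested pathway genes with a window 3 held a match (7.14%), the third being Gsk3a, which did not pass the threshold. Over all 27025 genes with a window the share was 8.63%. A match is a description of the letters, and the absence of one says nothing about the factors.

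Axin2 and Notum were also compared with each other within arrays. Axin2 minus Notum was 1.53, 2.44 and 2.22 on the posterior arrays and -1.82, -1.67 and -1.69 on the anterior arrays, a shift of 3.80. The lines did not overlap, and the exact two-sided permutation p was 0.1 (0.1 adjusted over the 3 pairs), the smallest possible. This outcome was fixed in advance, since Axin2 was higher and Notum lower on every posterior array than on every anterior array. It adds no support to the differences of the single genes. The third pair, Nkd1 against Notum, is given no value, since no anterior array detected Nkd1. These quantities describe an unequal change of 2 probes and set no level of 1 gene against that of another.

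The receptors did not form a group against the feedback targets. The receptor differences were 4.09 for Fzd2 and 0.24 for Fzd7, and the feedback target differences were 1.41 for Axin2, 1.005 for Nkd1 and -2.38 for the brightest Notum probe. The median receptor difference exceeded the median feedback target difference by 1.16, but the feedback median is the fitted value of Nkd1, which no anterior array detected. The gap was 1.63 with Nkd1 at its bound and 2.65 without Nkd1. It is no exact gap, and the differences within each class spread wider than it.

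Tcf7l2, which encodes a TCF/LEF factor that recruits β-catenin to DNA, had levels of 6.76, 7.21 and 7.29 on the posterior arrays and 7.08, 6.85 and 7.07 on the anterior arrays. The lines overlapped. The log2 difference was 0.09 (SE 0.17, 95% interval -0.31 to 0.48, limma adjusted p = 0.723), and it was -0.014 without posterior replicate 3. The deposited intensities before normalization did not overlap, at 191, 196 and 197 in posterior and 149, 166 and 162 in anterior, and with arrays scaled to a common median the difference was 0.38 (limma adjusted p = 0.171).

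Arrays of 1 line differed in a shared way across these probes. Posterior replicate 1 was the lowest posterior array on 8 of the 10 probes, and posterior replicate 2 on the other 2. Anterior replicate 3 was the lowest anterior array on 6 of 10. Over the 13639 tested probes detected on all arrays, posterior replicate 1 was the lowest of its line on 39.6% and anterior replicate 3 on 43.3%. Posterior replicate 1 had the most detected probes of the 6 arrays, 18657. Several of the 10 probes share a gene, so they are not independent.

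The rest of the pathway was described from a list of 105 genes in 9 roles, of which 70 had a named probe and 66 were tested. The list was also chosen with earlier results of these data known, which limits its counts, in all and by role, in the same way. Of those 66, 33 were higher and 12 lower in posterior (68.2% past the threshold), beside 25.9% higher and 21.5% lower of all tested genes. The median difference was 0.44, beside 0.03 over all tested genes, and 0.32 with genes undetected in a line at their bound. With arrays scaled to a common median, 32 were higher and 7 lower. Detection differed within the list, in which 11 of the 66 were detected on no anterior array and 1 on no posterior array. Among the 42 detected on all 6 arrays, 17 were higher and 11 lower, beside 22% and 23.1% of the 8041 genes so detected, and their median was 0.19. With the 7 genes described above left out, 30 of 59 were higher and 10 lower.

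**Figure D3:**
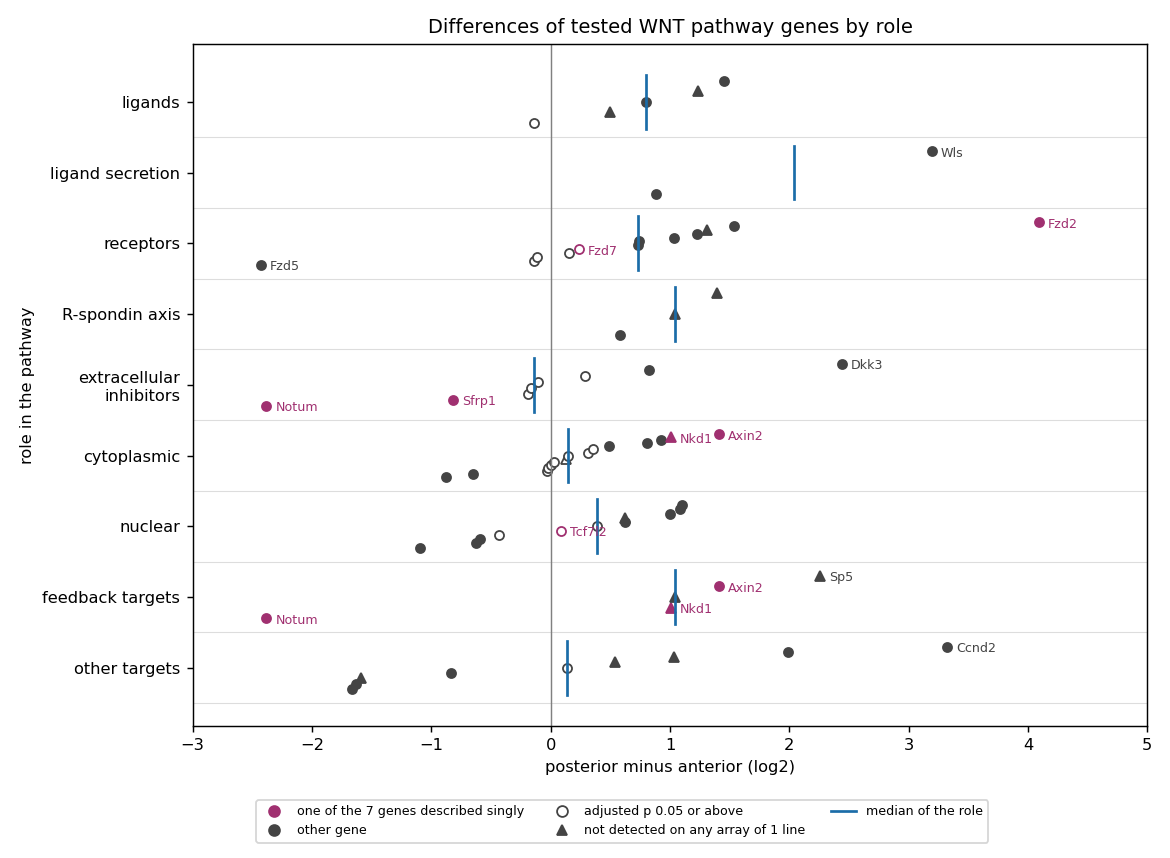
The x axis gives the posterior minus anterior difference in log2 intensity of each tested WNT pathway gene, grouped by role down the y axis, with the median of each role as a vertical line, open symbols at an adjusted p of 0.05 or above, and triangles for genes detected on no array of a line. Axin2, Nkd1, Notum and Lgr5 appear under both of their roles, and Fzd2 at 4.09 lies farthest from 0.

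Of 5 tested ligand genes 4 were higher in posterior and 0 lower, beside 25.9% and 21.5% of all tested genes. Wnt5b and Wnt7a among them entered the test only through the posterior arrays, which fixed their direction, and of the 2 ligand genes detected on all 6 arrays 1 was higher. Wnt6 averaged 7.14 ± 0.83 in posterior and 5.69 ± 0.02 in anterior (SD, n = 3 each, limma adjusted p = 0.00992), a call lost with no detection filter (limma adjusted p = 0.0660). Wnt3a, a ligand of the β-catenin branch, averaged 5.83 ± 0.23 in posterior and 5.03 ± 0.29 in anterior, where 2 of 3 arrays detected it. Wnt5b was at least 1.94-fold higher and Wnt7a at least 1.05-fold, and Wnt7a no longer passed under 6 of 15 alternatives. Wls encodes the carrier that brings WNT proteins to the cell surface, and it averaged 8.91 ± 0.20 in posterior and 5.71 ± 0.28 in anterior (SD, n = 3 each), 9.16-fold higher (limma adjusted p = 5.46e-06), or 5.33-fold on the authors' values and 5.07-fold with the mean of its probes. Porcn, whose product attaches the lipid, was 1.84-fold higher (limma adjusted p = 0.0227), a call lost without anterior replicate 3 (limma adjusted p = 0.0614).

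Of 12 tested receptor genes, 7 were higher, 1 lower and 4 not past the threshold, beside 25.9% higher and 21.5% lower of all tested genes. Without Fzd2, 6 of 11 were higher and 1 lower, and among the 8 of these detected on all 6 arrays 4 were higher and 1 lower. Fzd5 was the only receptor gene lower in posterior, at 7.37 ± 0.14 in posterior and 9.80 ± 0.25 in anterior (SD, n = 3 each), 5.38-fold lower (limma adjusted p = 1.33e-05). Fzd2 and Fzd5 thus had differences of opposite sign and of 4.09 and -2.43. Ror2, a receptor for WNT5A, was 2.91-fold higher (limma adjusted p = 0.000180). Fzd3, detected on 1 of 3 anterior arrays, was 2.34-fold higher, and Fzd8, detected on none, was at least 2.44-fold higher, a direction fixed by the filter. Fzd6, Ryk and Ptk7 also passed, at 1.03, 0.74 and 0.73 in log2, and are named after their values were seen; Ptk7 did not pass without posterior replicate 2 (limma adjusted p = 0.0599). The log2 differences of Fzd4 and Fzd10, likewise named after their values were seen, were 0.15 and -0.14 (limma adjusted p = 0.430 and 0.441), and that of Fzd10 turned to 0.14 under median scaling.

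The R-spondins amplify WNT signals through LGR receptors. All 3 tested genes of this axis were higher in posterior, beside 25.9% of all tested genes. The rise was at least 1.92-fold for Rspo3, at least 1.60-fold for Lgr5, and 0.58 in log2 for Rspo1 (limma adjusted p = 0.0237). Rspo3 and Lgr5 were detected on no anterior array and Rspo1 on 1 of 3, so the filter allowed little else. Rspo1 lost its call under 9 of 15 alternatives.

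Of 8 tested extracellular inhibitor genes 2 were higher and 2 lower, near the 25.9% and 21.5% of all tested genes, the lower ones being Notum and Sfrp1. Dkk3, a member of the Dickkopf family, averaged 7.31 ± 0.25 in posterior and 4.86 ± 0.30 in anterior (SD, n = 3 each), where 2 of 3 arrays detected it, and was 5.44-fold higher (limma adjusted p = 3.07e-05), or 2.69-fold on the authors' values. Kremen1, a co-receptor for Dickkopf proteins, was 1.77-fold higher (limma adjusted p = 0.00155).

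Of 15 tested genes of cytoplasmic components 5 were higher and 2 lower, and the share past the threshold, 46.7%, was near the 47.4% of all tested genes. Ctnnb1, which encodes β-catenin and is named after its value was seen, averaged 10.88 ± 0.23 in posterior and 10.52 ± 0.28 in anterior (SD, n = 3 each), a log2 difference of 0.36 (SE 0.19, limma adjusted p = 0.163). Gsk3b, which encodes a kinase that marks β-catenin for destruction, was 1.90-fold higher (limma adjusted p = 0.00153), and Nkd2, the paralog of Nkd1, was 1.75-fold higher (limma adjusted p = 0.0101). Btrc and Dvl2 were lower, with log2 differences of -0.88 and -0.65 (limma adjusted p = 0.0128 and 0.0232). Btrc lost its call under 3 of 16 alternatives, and Dvl2 under 6 of 16.

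Of 11 tested nuclear genes 5 were higher and 3 lower, beside 25.9% and 21.5% of all tested genes. Bcl9, Bcl9l and Pygo1, whose products link β-catenin to the transcription machinery, were higher by 1.08, 1.10 and 1.004 in log2 (limma adjusted p = 0.00211, 0.00211 and 0.000816). Tle2, a co-repressor gene detected on no anterior array, was at least 1.26-fold higher, and did not pass on the authors' values (limma adjusted p = 0.0560). The detection filter fixed the direction of Tle2. The co-repressor genes Tle4 and Tle1 were lower, with log2 differences of -1.10 and -0.59 (limma adjusted p = 0.00129 and 0.0177). Tcf7l1, which encodes a mostly repressive TCF factor known from pluripotent cells, averaged 10.18 ± 0.17 in posterior and 10.80 ± 0.34 in anterior (SD, n = 3 each, limma adjusted p = 0.0282), a call lost under 6 of 16 alternatives. Tle1 lost its call under 3 of 16.

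Of the 5 tested feedback targets 4 were higher in posterior and Notum alone was lower, beside 25.9% higher and 21.5% lower of all tested genes. Sp5, a transcription factor gene activated by β-catenin, averaged 6.62 ± 0.90 in posterior and 4.37 ± 0.11 in anterior (SD, n = 3 each), where no array detected it, and was at least 3.45-fold higher (limma adjusted p = 0.00170). With Nkd1 and Lgr5, 3 of the 4 higher feedback targets were detected on no anterior array, so the detection filter fixed their direction. Axin2 and Notum were the only feedback targets detected on all 6 arrays, and they changed in opposite directions.

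Of 9 tested genes listed as other targets of the pathway 4 were higher and 4 lower, beside 25.9% and 21.5% of all tested genes. Cdx2, Cd44 and Fgf4 among them entered the test only through a single line, which fixed their direction. Ccnd2, a cyclin D gene, averaged 8.37 ± 0.71 in posterior and 5.05 ± 0.28 in anterior (SD, n = 3 each), where 2 of 3 arrays detected it. Ccnd2 was 10.0-fold higher in posterior (limma adjusted p = 9.41e-05), or 4.76-fold on the authors' values and 5.50-fold with the mean of its probes. Its paralog Ccnd1 averaged 8.25 ± 0.42 in posterior and 9.89 ± 0.41 in anterior, 3.11-fold lower (limma adjusted p = 0.00139). The caudal gene Cdx1, detected on 2 of 3 anterior arrays, was 3.98-fold higher (limma adjusted p = 5.43e-05), or 2.24-fold on the authors' values. Cdx2, detected on no anterior array, was at least 1.77-fold higher. Cd44, detected on no anterior array, was at least 1.03-fold higher, a call lost under 2 of 15 alternatives for this probe. With no detection filter another probe stood for Cd44, with a log2 difference of 0.19 (limma adjusted p = 0.598). On the authors' values the gene was also represented by another probe, with 0.02 (limma adjusted p = 0.883). Tbx3, a T-box gene of the limb bud, and Myc were lower, with log2 differences of -1.66 and -0.83 (limma adjusted p = 2.04e-05 and 0.00400), and Fgf4, detected on no posterior array, was at least 2.31-fold lower. Tbx3, Fgf4 and Myc are also expressed in pluripotent cells, whose markers were higher in the anterior line. Whether this bears on their difference was not tested.

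The genes whose pattern over the 6 arrays was most like that of Fzd2 were, among 8040 others detected on all arrays, Dlk1, Ecm1 and Krt18. Likeness was the root mean square difference of log2 levels centred on each gene, 0.185 for Dlk1, 0.217 for Ecm1 and 0.241 for Krt18. Dlk1 averaged 10.67 in posterior and 6.55 in anterior, Ecm1 9.23 in posterior and 5.41 in anterior, and Krt18, which is also in the epithelial list, 10.66 in posterior and 6.36 in anterior. The genes most like Notum were Msrb2, Angptl4 and Rarg, at 0.101, 0.117 and 0.124. Msrb2 averaged 6.03 in posterior and 8.39 in anterior, Angptl4 5.83 in posterior and 8.32 in anterior, and Rarg 5.43 in posterior and 7.72 in anterior. With 6 arrays in 2 lines, any gene with a like difference between the lines scores as alike.

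**Figure D4:**
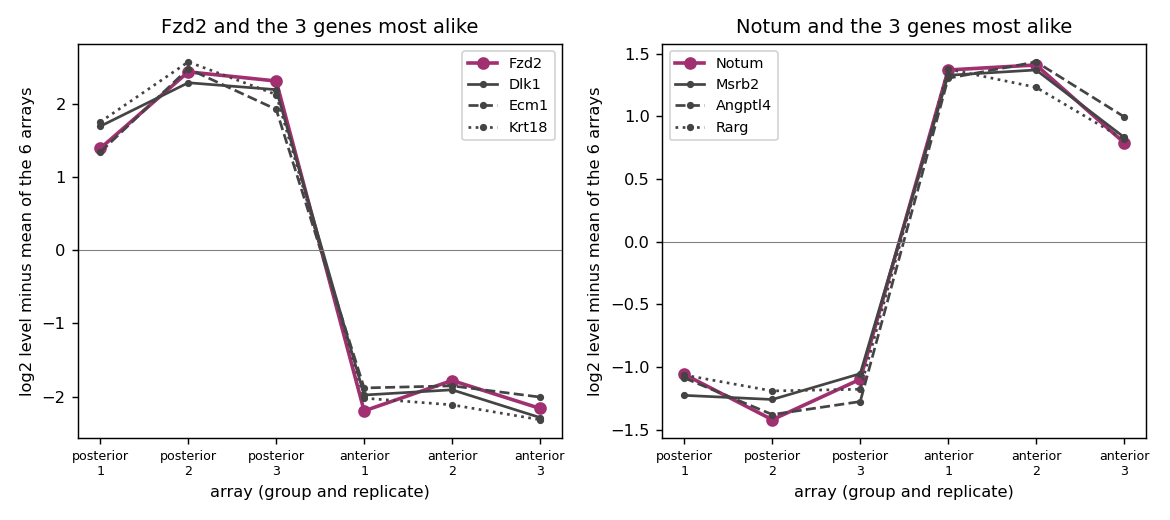
The y axis gives the log2 level of each gene minus its mean over the 6 arrays, which run along the x axis with posterior left of anterior, for Fzd2 and its 3 most alike genes in the left panel and for Notum and its 3 in the right panel. Fzd2 and its neighbours are high on the 3 posterior arrays, and Notum and its neighbours are high on the 3 anterior arrays, lowest there on anterior replicate 3.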

How the data were processed

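The deposited table gave, per the file headers, linear intensities and detection p-values of 45281 probes. The intensities were neither background-corrected nor normalized. The authors' deposited log2 values of 18312 probes equal quantile-normalized log2 intensities without background correction to within 5e-09. Limma is named, with no version, per the submitters' processing notes. Here neqc (limma 3.58.1, R 4.3.3) was applied to the intensities (normexp background from the detection p-values, offset 16, quantile normalization, log2). The offset makes differences of dim probes smaller. The 18242 probes with a detection p under 0.05 on at least 3 of 6 arrays were compared with lmFit and eBayes across all tested probes, and 7762 passed an adjusted p of 0.05. Symbols came from the platform annotation of the authors' probes (15550 with 1 symbol, 9 with several, 2753 with none). A gene in a list was represented by its brightest tested probe. Precision is limited by 3 arrays per line.

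The 10 genes and all lists were chosen with earlier results of these data known. Named are all 10 genes, up to 4 genes past the threshold per direction and role with the largest difference, every feedback target, and the 3 genes most like the receptor and the feedback target with the largest difference. Same-numbered arrays of the 2 lines were not treated as pairs, since their deviations from the line means correlated at 0.36, 0.17 and -0.07. The limma fit was tested on simulated normalized log2 values. The background correction, normalization and detection filter were not tested in this way. Alternatives were other background, offset, scaling, filters, variance models, array weights, the replicate block, the authors' values and leaving out each array. Plots used matplotlib 3.10.9 and Python 3.11.15.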

Additional observations from a re-analysis of the deposited data

How the results depend on the processing

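Of 149 values of the 10 WNT probes under the alternatives, 145 kept their direction and their side of the threshold, 3 lost the call and 1 turned sign. Tcf7l2 ranged from -0.014 to 0.25 when 1 array was left out, and Fzd10 turned to 0.14 under median scaling. ILMN_2504886 of Notum also lost its call with no detection filter (adjusted p = 0.0811). WNT probes past the threshold numbered 7 to 8 when 1 array was left out and 5 of 7 among probes detected on all 6 arrays. Pathway genes past the threshold numbered 39 to 43 and 28 of 42 in the same settings, and the median receptor minus feedback target difference was 0.99 to 1.35 and 2.65, the last with Nkd1 left out. Probes past the threshold numbered 5991 to 7679 when 1 array was left out. Under median scaling the median over all genes shifted by 0.17, and the share of higher probes among those past the threshold was 69.5%, against 49.8% with quantile normalization, and that of higher genes 72.1%, against 54.7%. There 32 pathway genes were higher and 7 lower, against 33 and 12. On the authors' values, which carry no background correction, all 49 named results past the threshold had a smaller fold, 18 of them by over 1.5 times. With the replicate number as a block, 7827 probes, 8 WNT probes and 47 pathway genes passed; the block changed no call of a WNT probe. Signal near background limits Nkd1, the dimmer Notum probes and the 11 pathway genes detected on no anterior array. For the other 44 named genes 647 of 687 values kept direction and side, 39 lost the call and 1 turned sign. The cause of these losses was not tested.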
